A study of Mus musculus with 24 samples.

Results

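The genes that restrain NF-κB were followed at the level of open chromatin: Nfkbia, Nfkbib and Nfkbie, which encode the classical IκB proteins, Nfkbiz and Bcl3, which encode nuclear members of the IκB family, and Tnfaip3 and Tnip1, which encode the ubiquitin-editing protein A20 and its binding partner ABIN-1. A region of the count table belonged to 1 of these 7 genes if it overlapped the gene body, or if the nearest end of any protein-coding gene within 50 kb was an end of that gene. This gave 14 of 13910 regions, and all 14 passed the filter on low counts. Bcl3 had 4 regions, Tnfaip3 had 3, Nfkbia and Nfkbiz had 2 each, and Nfkbib, Nfkbie and Tnip1 had 1 each. The data are ATAC-seq libraries, in which the Tn5 transposase tags accessible DNA, from donor cells sorted from the bone marrow of transplanted mice. All donor cells were WT and carried CD45.1, and the recipients were young CD45.2 mice that were either WT or IκB–, analysed 13 to 15 weeks after the transplant. The labels do not describe the IκB– allele, the cells it acts in or the conditioning of the recipients, so the members studied here were read in cells that carry WT copies of them. HSC, MPP2, MPP3 and MPP4 were sorted from each recipient type, at 500 to 1500 cells per sample, which gave 8 groups of 3 libraries. The HSC group is labelled as long-term stem cells, but its gate is given as CD150– CD48– whereas such cells are usually gated as CD150+, so it is used here under its label only. The MPP subsets are multipotent progenitors, of which MPP4 carries Flt3. In WT MPP3, replicates 2 and 3 differed no more than sampling error gives, so their counts were merged and n = 2 there.

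Classical IκB proteins bind NF-κB dimers and hold them in the cytoplasm until a kinase complex marks the inhibitor for degradation. Free NF-κB then enters the nucleus and binds κB sites, among them sites at the genes of its own inhibitors, so that Nfkbia and Tnfaip3 are textbook negative feedback genes. Bcl3 and IκBζ act inside the nucleus, where they bind NF-κB dimers that lack an activation domain of their own and alter transcription of selected targets. NF-κB signalling in blood stem and progenitor cells is known for its part in emergency haematopoiesis and inflammation.

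The start of a gene is where a κB site of a feedback gene is classically found, and member regions overlapped the 250 bases before the start of Nfkbia, Nfkbib, Nfkbie and Tnfaip3. Those 4 windows are shown because they are the promoter sequence that the accessibility values at the starts refer to. They are RefSeq sequences of the assembly GRCm38.p6, which is the mm10 build named in the submitters' processing notes, and are written 5′ to 3′ on the strand of the gene. Capitals mark a match to a κB-like motif (3 G, any 2 bases, 2 T, any base, 2 C), searched on both strands.
Nfkbia, chr12:55492648-55492897, minus strand: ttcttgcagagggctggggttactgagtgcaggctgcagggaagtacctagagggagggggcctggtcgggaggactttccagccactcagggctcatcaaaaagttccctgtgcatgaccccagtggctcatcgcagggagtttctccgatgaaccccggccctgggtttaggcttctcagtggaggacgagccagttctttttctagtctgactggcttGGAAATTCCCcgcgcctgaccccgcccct
Tnfaip3, chr10:19015411-19015660, minus strand: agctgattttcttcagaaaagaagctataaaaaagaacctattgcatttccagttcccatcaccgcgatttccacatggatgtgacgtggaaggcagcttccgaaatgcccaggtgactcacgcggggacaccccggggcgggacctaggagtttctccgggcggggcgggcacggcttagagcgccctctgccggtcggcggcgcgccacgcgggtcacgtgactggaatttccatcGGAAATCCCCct
Nfkbie, chr17:45555450-45555699, plus strand: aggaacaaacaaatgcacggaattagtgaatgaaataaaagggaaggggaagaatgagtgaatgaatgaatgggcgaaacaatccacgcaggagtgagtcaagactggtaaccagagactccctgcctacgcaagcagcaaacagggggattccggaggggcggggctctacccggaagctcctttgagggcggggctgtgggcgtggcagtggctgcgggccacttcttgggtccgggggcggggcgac
Nfkbib, chr7:28766645-28766894, minus strand: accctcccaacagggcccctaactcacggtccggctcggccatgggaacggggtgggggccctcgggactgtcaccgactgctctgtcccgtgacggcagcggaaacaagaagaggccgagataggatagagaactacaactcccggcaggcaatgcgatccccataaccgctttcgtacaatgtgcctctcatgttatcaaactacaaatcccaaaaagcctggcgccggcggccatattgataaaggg
The Nfkbia match, GGAAATTCCC, lay 29 to 20 bases before the start, and the region at the Nfkbia start covered the 103 bases nearest to it. In Tnfaip3 the match GGAAATCCCC lay 12 to 3 bases before the start, inside the 209 bases covered by its region. The Nfkbib and Nfkbie windows held no match to these letters. Among all 32851 RefSeq windows of this length, 4.11% held at least 1 match. The windows of Nfkbie and Tnfaip3 also held the AP-1 motif TGACTCA, present in 4.46% of windows, and that of Nfkbie held the ETS-like motif CCGGAAG, present in 6.91%. Of the other members, Tnip1 had a κB-like match, GGGAATTCCC, 57 to 48 bases before its start and Bcl3 had none, but no region of the count table overlapped either window. Nfkbiz had no entry among the sequences used here. A match is a description of the letters and was not tested as a binding site.

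The 14 regions spanned ordinary levels of accessibility. Levels are given as CPM, counts scaled to 1000000 per library, on library sizes scaled by TMM, and between regions of different width only as CPM per kb. The median of the members was 143.5 CPM per kb against 145.9 for all 13325 tested regions. The region inside Nfkbiz was the most accessible at 231.8 CPM per kb, above 86.8% of tested regions, and the region at the start of Nfkbib followed at 212.0. At the other end, the region 47.0 kb upstream of Tnfaip3 had 65.4 CPM per kb and lay above 0.901% of tested regions, and the Nfkbie start had 87.5. The 2 regions inside Bcl3 had 172.7 and 150.8 CPM per kb. Raw counts per replicate were small, from 0 to 155 over the 14 regions, which sets the precision of every value below. In pooled cells a larger share of cells with an open site and a wider opening per cell cannot be told apart.

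Total counts over the regions ran from 121599 to 963699 per library with a median of 288233. Among the 23 replicates, replicate 3 of the IκB– HSC stood out as the highest in 5 of the 14 member regions, and it was also the highest in 14.4% of all tested regions, more than any other replicate. Where its omission reversed a mean recipient effect or moved it by over 1.5 times, the value without it, or the range with 1 replicate left out, is given.

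**Figure D1:**
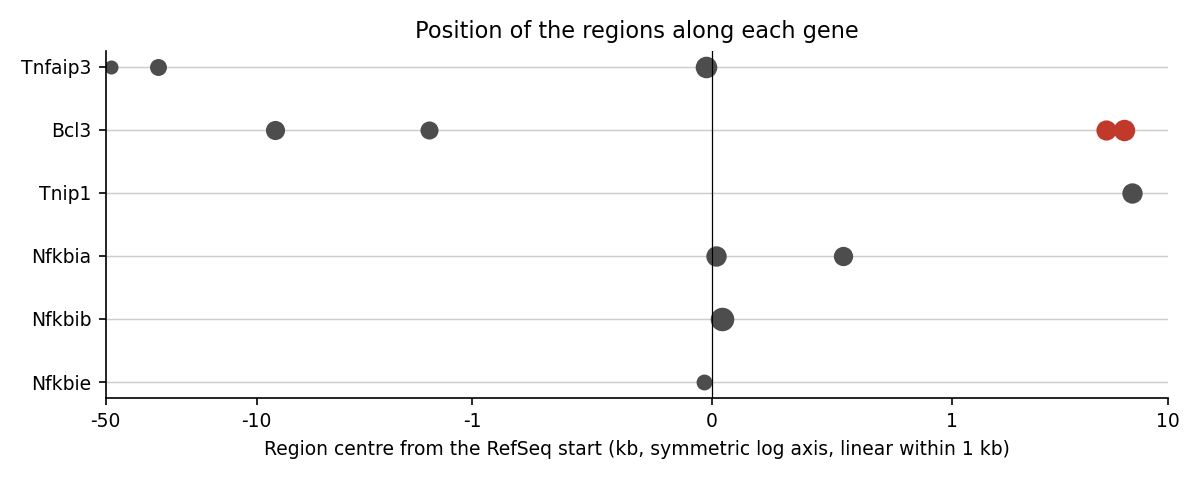
Distance of each region's centre from the RefSeq start of its gene, in kb on a symmetric log axis, for the 6 members with a start in the sequence table; the area of a point scales with CPM per kb and red points passed the test of the mean recipient effect. Both red points lie in the Bcl3 gene body, at 6.3 and 5.2 kb downstream of the start.

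Bcl3 was the only member with regions called between recipients, and both calls were lost with an estimated correlation within replicate numbers (limma-voom adjusted p = 0.146 and 0.189). Its 2 regions inside the gene were both higher in donor cells from IκB– recipients, when the effect was averaged over the 4 subsets, by 0.89 ± 0.23 (log2, SE) and 0.63 ± 0.17. Bcl3 is the nuclear IκB protein that also came to notice as a gene joined by translocation in B cell leukaemia. These were 2 of 14 member regions called at an adjusted p under 0.05, with a background of 1.73% of all tested regions called in either direction and 0.608% called higher in IκB– recipients. The regions lie 6.3 kb downstream of the start, at chr7:19816386-19816595, and 5.2 kb downstream, at chr7:19817361-19817769, separated by 766 bp. The annotation used holds gene bodies without exons, so it is not given whether they are exonic or intronic.

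The region 6.3 kb into Bcl3 was the lowest in WT MPP2. In HSC its accessibility was 42.8, 15.6 and 28.3 CPM in replicates 1, 2 and 3 of WT recipients and 41.3, 35.7 and 75.4 CPM in those of IκB– recipients. In MPP2 the WT replicates had 21.3, 9.09 and 16.5 CPM and the IκB– replicates 29.2, 29.4 and 37.4 CPM. The HSC groups overlapped, whereas all IκB– MPP2 replicates were above all WT ones, as in 6.18% of all tested regions. In MPP3 the values were 24.7 and 30.6 CPM in WT against 49.8, 49.2 and 59.5 CPM in IκB– recipients. For MPP4 they were 34.8, 34.8 and 19.1 CPM against 32.7, 45.6 and 67.8 CPM. MPP3 groups were again apart, as they were in this direction in 12.5% of all tested regions, with n = 2 in WT. In MPP4 the lowest IκB– replicate fell within the WT range. All 12 IκB– replicates lay above the mean of the WT replicates of their subset. Over the subsets the WT replicates averaged 25.2 ± 10.1 CPM (SD, n = 11) and the IκB– replicates 46.1 ± 15.0 CPM (SD, n = 12). The mean recipient effect of 0.89 had an adjusted p of 0.0317 by edgeR's quasi-likelihood test with Benjamini-Hochberg adjustment over all tested regions. The raw counts behind these values ran from 3 to 52 per replicate.

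The neighbouring region, 5.2 kb into the gene, was wider, at 408 against 209 bp, and had a lower level per kb. In HSC it had 55.0, 43.0 and 28.3 CPM in WT recipients and 62.0, 98.3 and 88.7 CPM in IκB– recipients. MPP2 had 44.7, 24.3 and 33.0 CPM in WT and 55.6, 66.1 and 48.1 CPM in IκB– recipients. In both subsets every IκB– replicate exceeded every WT replicate, as in 4.11% of all tested regions in HSC and 6.18% in MPP2. MPP3 had 58.8 and 65.8 CPM in WT against 76.6, 96.1 and 46.0 CPM in IκB– recipients, and MPP4 had 48.7, 45.2 and 71.6 CPM against 89.8, 83.6 and 86.3 CPM. The MPP3 groups overlapped because replicate 3 of the IκB– group was lower than both WT values, while the MPP4 groups were apart. Higher IκB– values without overlap in MPP4 were found in 6.0% of all tested regions. The WT replicates averaged 47.1 ± 15.0 CPM (SD, n = 11) and the IκB– replicates 74.7 ± 18.6 CPM (SD, n = 12), and 11 of 12 IκB– replicates lay above their WT subset mean. With 6 to 80 counts per replicate, the effect of 0.63 had an adjusted p of 0.0454 by the same edgeR test.

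**Figure D2:**
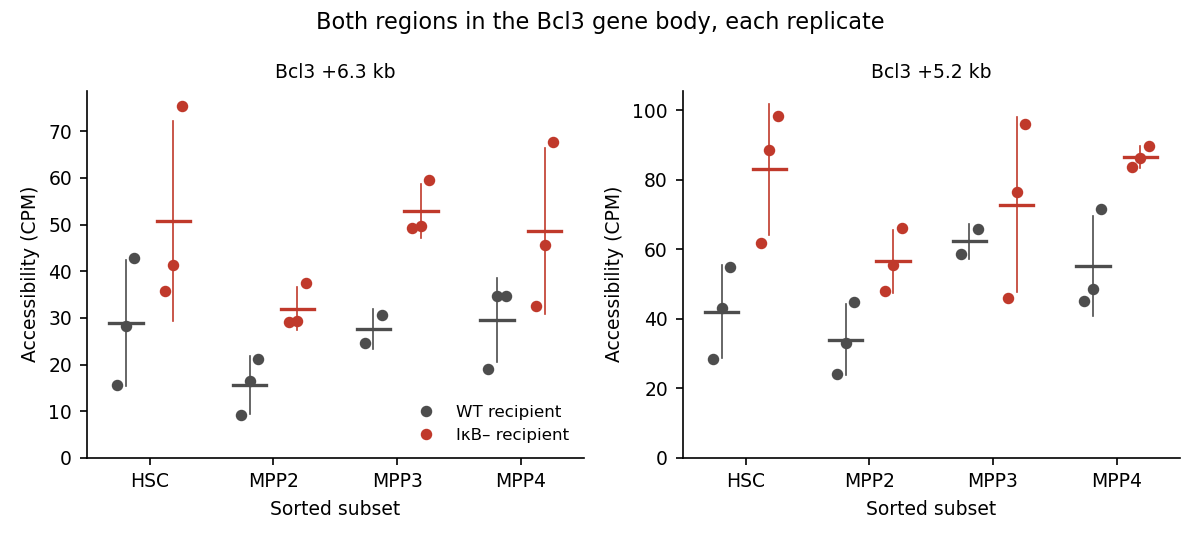
Accessibility in CPM (vertical axes, from 0) of both regions inside Bcl3 by sorted subset; points are replicates, horizontal lines group means and vertical lines ± SD, with n = 3 per group except n = 2 in WT MPP3. The IκB– means lie above the WT means in all 4 subsets in both panels. The groups do not overlap in MPP2 and MPP3 for the region at 6.3 kb and in HSC, MPP2 and MPP4 for that at 5.2 kb. Such higher values without overlap occurred in 12.5% of all tested regions for MPP3 and 6.18% for MPP2. The share was 6.0% for MPP4 and 4.11% for HSC. Both regions are drawn because they were called in these data, so their separation is no further support for the calls.

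Both calls were close to the threshold, and whether they held depended on how replicate numbers were treated. Both were lost with counts summed per replicate number and with an estimated correlation within it, fits chosen after seeing the data. With replicate number as a block across recipient types and 24 libraries kept apart, both were kept (edgeR adjusted p 0.0152 and 0.024). That block does not model a deviation shared by the subsets within 1 recipient type only. The labels do not say whether libraries of 1 replicate number come from 1 mouse. When the counts of the 4 subsets were summed per recipient type and replicate number, which leaves 3 against 3 samples, the effects were 0.92 and 0.57 with edgeR adjusted p of 0.182 and 0.342. With limma-voom and an estimated correlation within replicate numbers, the adjusted p were 0.146 and 0.189. Replicates 2 and 3 of WT MPP3, merged in the reported fit, were kept apart in both of these fits and in the averages that follow. Averaged over the subsets, replicate numbers 1, 2 and 3 had a mean log2(CPM + 1) at 6.3 kb of 4.92, 4.26 and 4.67 in WT recipients and 5.25, 5.31 and 5.89 in IκB– recipients. At 5.2 kb they had 5.69, 5.22 and 5.69 against 6.13, 6.41 and 6.03. Thus all 3 IκB– numbers were above all 3 WT numbers at both sites. The 2 regions were taken because they were called in these same data, so this order is no separate support for the calls. An exact two-sided permutation test gave p = 0.1, the smallest p that 3 against 3 allows, so it could not have passed. DESeq2 called neither region (adjusted p 0.0507 and 0.0865) and limma-voom called both. Leaving out 1 replicate at a time kept the call at 6.3 kb in 15 of 23 fits. It was lost without IκB– replicate 3 of HSC, MPP2 or MPP4 (adjusted p 0.0904, 0.0559 and 0.101), without WT replicate 2 of HSC, MPP2 or MPP4 (0.0801, 0.0738 and 0.0558), and without either WT MPP3 replicate (0.0589 and 0.0719). At 5.2 kb the call held in 5 of 23 fits, those without IκB– HSC 1, IκB– MPP3 3, WT HSC 1, WT MPP2 1 or WT MPP4 3, and each of the other 18 left an adjusted p between 0.0515 and 0.113. The log2 fold changes in these fits ran from 0.78 to 1.001 and from 0.58 to 0.72.

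Among the regions of the subset marker lists, 3 were called in the mean recipient effect, all lower in IκB– recipients, with the background of 1.73% given above. Regions at the megakaryocyte and erythroid genes chosen as MPP2 markers, 11 regions of 5 of 6 genes, all had negative mean effects, from -1.23 to -0.09 with a median of -0.44, and 2 regions at Zfpm1 were called lower in IκB– recipients. Their summed level ran from 460.9 to 897.1 CPM (median 658.2) in WT replicates and from 411.0 to 632.8 CPM (median 497.7) in IκB– replicates. Of 9 regions at 5 of 8 HSC marker genes, 1 at Slamf1 was called lower, and their sums overlapped (308.7 to 570.1 against 297.2 to 517.8 CPM). No region of the MPP3 or MPP4 lists was called. The 6 regions of MPP4 markers had a median effect of 0.32, with sums of 142.4 to 326.8 CPM (median 171.9) in WT and 115.3 to 357.5 CPM (median 229.0) in IκB– replicates, and the 3 regions of MPP3 markers a median of 0.01. The single granulocyte marker region, near S100a9, had an effect of 0.61 with an adjusted p of 0.280. No marker region of T cells or stroma was in the count table. The part of these markers in the Bcl3 result was not tested.

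Within single subsets neither Bcl3 region was called. At 6.3 kb the effects in HSC, MPP2, MPP3 and MPP4 were 0.98 ± 0.48, 0.98 ± 0.47, 0.90 ± 0.39 and 0.72 ± 0.45 (log2, SE), and at 5.2 kb they were 0.99 ± 0.39, 0.64 ± 0.35, 0.24 ± 0.30 and 0.66 ± 0.34. Leaving out 1 replicate at a time moved them to 0.49 to 1.32, 0.69 to 1.40, 0.77 to 1.08 and 0.31 to 1.01 at 6.3 kb, and to 0.78 to 1.19, 0.42 to 0.98, 0.06 to 0.45 and 0.50 to 0.91 at 5.2 kb. All 8 estimates were positive, and the smallest edgeR adjusted p among them was 0.421. The joint test of whether the effect differed between subsets gave an edgeR adjusted p of 0.999 at both, and no region in the whole table passed that test. The 2 regions upstream of Bcl3 did not pass the test. At 8.2 kb upstream (chr7:19830787-19831165) the mean effect was 0.37 ± 0.21 with an adjusted p of 0.424, and WT replicates ranged from 22.0 to 75.0 CPM (median 40.5) against 32.8 to 102.0 CPM (median 53.1) in IκB– recipients. At 1.6 kb upstream (chr7:19824191-19824507), which is the region nearest the start, HSC had 30.6, 35.2 and 47.2 CPM in WT and 27.5, 8.93 and 35.5 CPM in IκB– recipients, and MPP2 had 12.8, 39.4 and 27.5 against 27.8, 51.4 and 29.4 CPM. MPP3 had 36.0 and 47.5 against 69.9, 14.1 and 62.2 CPM, and MPP4 had 48.7, 45.2 and 28.6 against 32.7, 38.0 and 58.6 CPM. The IκB– values were the more widely spread, and the mean effect was 0.05 ± 0.25. In both, the recipient groups overlapped in every subset. Without replicate 3 of the IκB– HSC these effects were 0.18 and -0.05.

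The classical inhibitor genes Nfkbia, Nfkbib and Nfkbie did not pass the test in any comparison. Nfkbia, whose product IκBα is the fast-turnover inhibitor, had 2 regions 125 bp apart. At the start (chr12:55492516-55492750) HSC had 30.6, 35.2 and 37.7 CPM in WT and 13.8, 26.8 and 62.1 CPM in IκB– recipients, and MPP2 had 44.7, 57.6 and 38.5 against 27.8, 44.0 and 40.1 CPM. MPP3 had 26.6 and 47.5 against 40.2, 44.5 and 78.4 CPM, and MPP4 had 6.95, 31.3 and 23.9 against 19.0, 22.8 and 33.9 CPM. All 4 subsets overlapped between recipients, and MPP4 was the lowest subset on both sides. The mean recipient effect there was 0.08 ± 0.24 (log2, SE; adjusted p 0.923), and -0.16 without replicate 3 of the IκB– HSC. At 0.5 kb downstream (chr12:55491811-55492391) the effect was 0.33 ± 0.20 (adjusted p 0.482), with 20.9 to 99.5 CPM (median 66.5) in WT and 20.7 to 155.3 CPM (median 90.2) in IκB– replicates. Replicate 3 of the IκB– HSC was the highest value at this region and replicate 1 of the same group the lowest, and without replicate 3 the effect was 0.04.

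Nfkbib encodes IκBβ, the more slowly released inhibitor. Its start region (chr7:28766397-28766807) also overlaps the body of Sirt2, so the reads cannot be given to 1 gene with certainty. HSC had 128.4, 97.7 and 127.3 CPM in WT and 75.7, 35.7 and 124.2 CPM in IκB– recipients, and MPP2 had 74.5, 84.9 and 88.0 against 50.1, 80.7 and 58.7 CPM. MPP3 had 117.6 and 62.8 against 45.9, 82.0 and 89.3 CPM, and MPP4 had 111.2, 90.4 and 76.4 against 65.3, 121.6 and 110.9 CPM. The groups overlapped in all 4 subsets, and 3 of 12 IκB– replicates lay above their WT subset mean. The mean effect was -0.31 ± 0.17 with an adjusted p of 0.422, and -0.18 without replicate 1 of WT MPP3.

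Nfkbie encodes IκBε, an inhibitor whose gene is also induced by NF-κB. Its start region (chr17:45555491-45555842) had few counts, from 0 to 54 per replicate. HSC had 12.2, 43.0 and 23.6 CPM in WT and 68.8, 0 and 22.2 CPM in IκB– recipients, and MPP2 had 25.6, 30.3 and 27.5 against 9.73, 29.4 and 29.4 CPM. MPP3 had 39.8 and 47.5 against 51.7, 53.9 and 18.9 CPM, and MPP4 had 41.7, 13.9 and 23.9 against 24.5, 38.0 and 30.8 CPM. The IκB– HSC replicates alone covered the whole range of the other groups, and no subset was free of overlap. The mean effect was -0.02 ± 0.28 (adjusted p 0.987), and 0.05 without replicate 3 of the IκB– HSC.

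Nfkbiz encodes IκBζ, the second nuclear member. The region inside the gene (chr16:55821988-55822618) varied 1.41-fold between its lowest and highest group means. WT replicates ranged from 97.3 to 176.6 CPM (median 142.5) and IκB– replicates from 98.8 to 252.9 CPM (median 149.9), a mean effect of 0.14 ± 0.13 (log2, SE; adjusted p 0.686). Replicate 3 of the IκB– HSC had the 252.9 CPM, the next highest replicate had 182.3 CPM, and the effect without it was 0.04. At the gene end (chr16:55838654-55838957) HSC had 24.5, 46.9 and 56.6 CPM in WT against 27.5, 53.6 and 39.9 CPM in IκB– recipients, and MPP2 had 61.7, 36.4 and 44.0 against 50.1, 36.7 and 50.7 CPM. MPP3 had 49.3 and 30.6 against 28.7, 44.5 and 16.2 CPM, and MPP4 had 27.8, 34.8 and 9.55 against 32.7, 38.0 and 21.6 CPM. All subsets overlapped, and the mean effect was -0.08 ± 0.23 (adjusted p 0.917). The strand of Nfkbiz was not in the tables used, so it is not stated whether this end is the start.

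**Figure D3:**
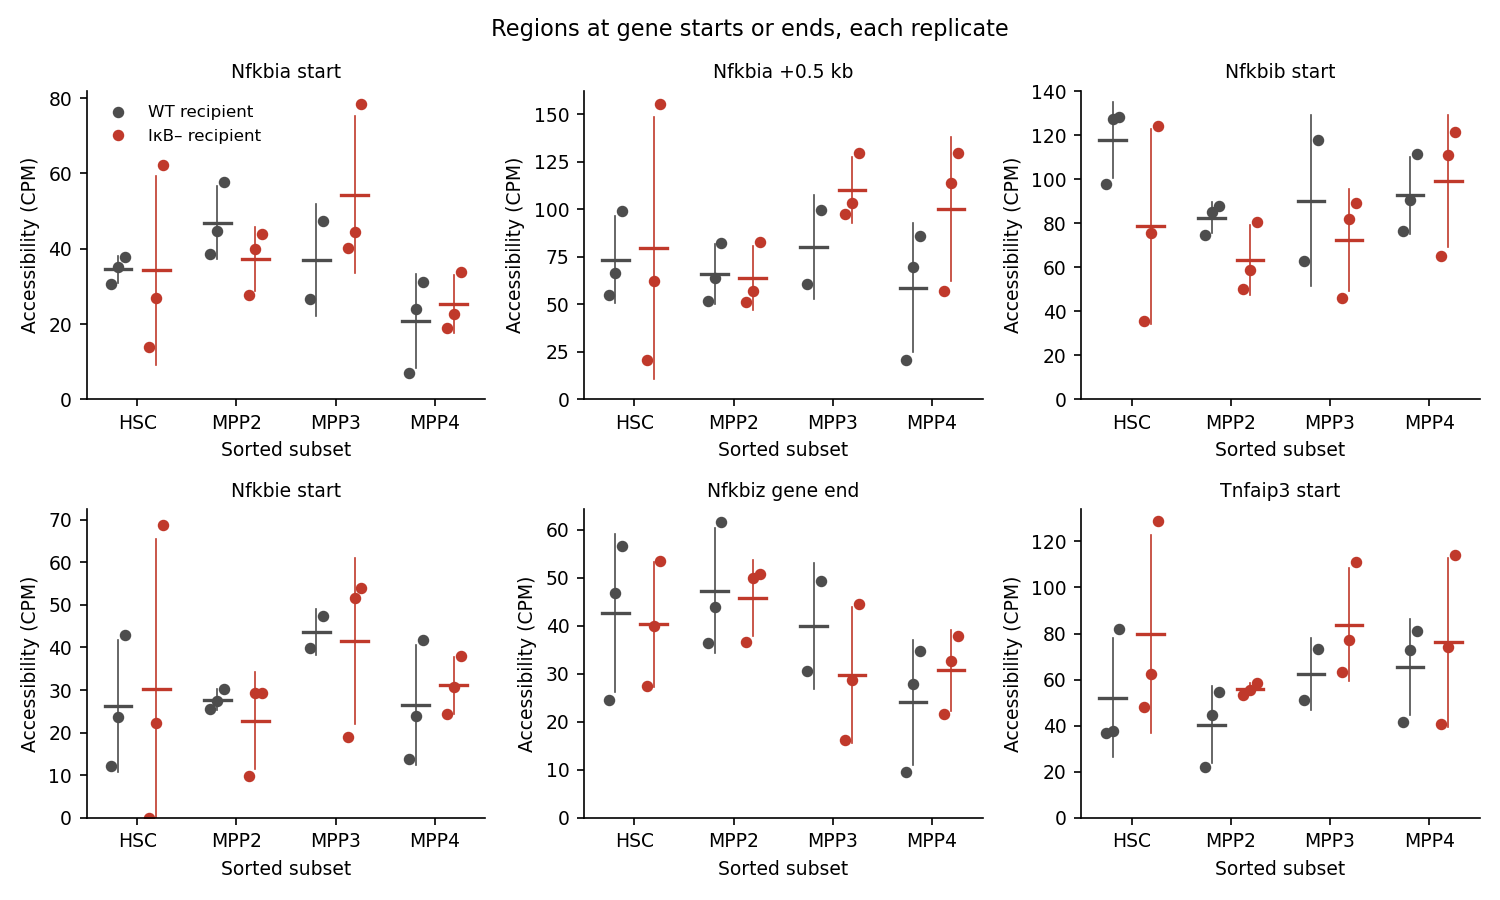
Accessibility in CPM (vertical axes, from 0) at 6 regions at or near gene starts or ends, by sorted subset; points are replicates, horizontal lines group means and vertical lines ± SD, with n = 3 per group except n = 2 in WT MPP3. The recipient types overlap in every subset of all 6 panels, and the IκB– HSC replicates run from 0 to 68.8 CPM at the Nfkbie start.

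Tnfaip3 encodes A20, which removes activating ubiquitin chains upstream of the IκB kinases. At its start (chr10:19015250-19015619) HSC had 36.7, 82.1 and 37.7 CPM in WT and 48.2, 62.5 and 128.7 CPM in IκB– recipients, and MPP2 had 44.7, 54.6 and 22.0 against 55.6, 58.7 and 53.4 CPM. MPP3 had 51.2 and 73.5 against 63.2, 77.3 and 110.9 CPM, and MPP4 had 41.7, 73.0 and 81.2 against 40.8, 114.0 and 74.0 CPM. The IκB– group means were higher in all 4 subsets, yet the replicates overlapped in each of them. The mean effect was 0.35 ± 0.20 with an adjusted p of 0.420, and 0.19 without replicate 3 of the IκB– HSC. The upstream regions did not pass the test, and their estimates had opposite signs. At 28.6 kb upstream (chr10:19043941-19044148) the effect was -0.58 ± 0.37 (adjusted p 0.506; -0.72 to -0.38 with 1 replicate left out), with WT replicates from 0 to 60.5 CPM (median 27.7) and IκB– replicates from 0 to 45.6 CPM (median 16.6), on 0 to 17 counts. At 47.0 kb upstream (chr10:19062144-19062711) it was 0.56 ± 0.27 (adjusted p 0.319 by edgeR), with 4.72 to 38.2 CPM (median 27.8) against 22.0 to 135.9 CPM (median 35.8).

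The value of 135.9 CPM was replicate 2 of the IκB– MPP3 group, whose other replicates had 33.5 and 43.3 CPM against 32.3 and 27.6 CPM in WT. The MPP3 effect at this region was 1.18 ± 0.45 (log2, SE; adjusted p 0.306), the largest estimate in a single subset among the members, and without that replicate it was 0.34, and the mean effect over the subsets was 0.36. Tnip1, whose product ABIN-1 links A20 to its substrates, had 1 region, 6.9 kb inside the gene (chr11:54955885-54956287). HSC had 79.5, 62.5 and 42.5 CPM in WT and 75.7, 26.8 and 79.9 CPM in IκB– recipients, and MPP2 had 51.1, 57.6 and 71.5 against 48.7, 58.7 and 72.1 CPM. MPP3 had 58.8 and 56.6 against 58.4, 75.0 and 75.7 CPM, and MPP4 had 41.7, 90.4 and 81.2 against 32.7, 91.2 and 33.9 CPM. The recipient types overlapped in all 4 subsets, with a mean effect of -0.10 ± 0.19 (adjusted p 0.875), which ran from -0.20 to -0.03 with 1 replicate left out. It was the only member with a lower estimate in MPP4, at -0.73 ± 0.39 (adjusted p 0.730), where replicates 1 and 3 of the IκB– group were below all WT values and replicate 2 was above them.

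Over all 14 regions the mean recipient effect was positive in 9, against 49.8% of tested regions, and the median was 0.11 (log2) against -0.00152 for all tested regions. Besides the 2 Bcl3 regions, that 47.0 kb upstream of Tnfaip3 was the only member with an unadjusted edgeR p under 0.05, which 14.3% of all tested regions had. The members therefore split into 2 regions of 1 gene that passed and 12 regions of 7 genes that did not, Bcl3 among them. No member was called in HSC, MPP2, MPP3 or MPP4 by edgeR, DESeq2 or limma-voom. With edgeR 0.0%, 0.0%, 0.21% and 0.045% of tested regions were called in these subsets. DESeq2 called 19 regions in MPP3 and 1 in MPP4, and limma-voom 183 and 0. At an unadjusted p under 0.05, edgeR gave 2, 1, 2 and 0 members in these subsets, against 6.31%, 3.66%, 9.52% and 7.10% of all tested regions, DESeq2 1, 0, 1 and 0, and limma-voom 2, 0, 1 and 1. In MPP4 13 of 14 estimates were positive, against 49.3% of tested regions, with a median of 0.25. Groups without overlap were found in HSC for 1 region higher (4.11% of tested regions) and 0 lower (4.4%), and in MPP2 for 2 higher (6.18%) and 1 lower (5.6%). In MPP3 there were 2 higher (12.5%) and 0 lower (15.7%), and in MPP4 1 higher (6.0%) and 0 lower (5.85%). Of these 6 instances of higher values, 5 were at the Bcl3 regions and 1 was 47.0 kb upstream of Tnfaip3, and the lower 1 was 28.6 kb upstream of Tnfaip3. The joint test of the recipient effect by subset called no member, as it called 0.0% of regions with edgeR, and 0 members had an unadjusted p under 0.05 with edgeR, DESeq2 or limma-voom, against 4.04% of all tested regions with edgeR.

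**Figure D4:**
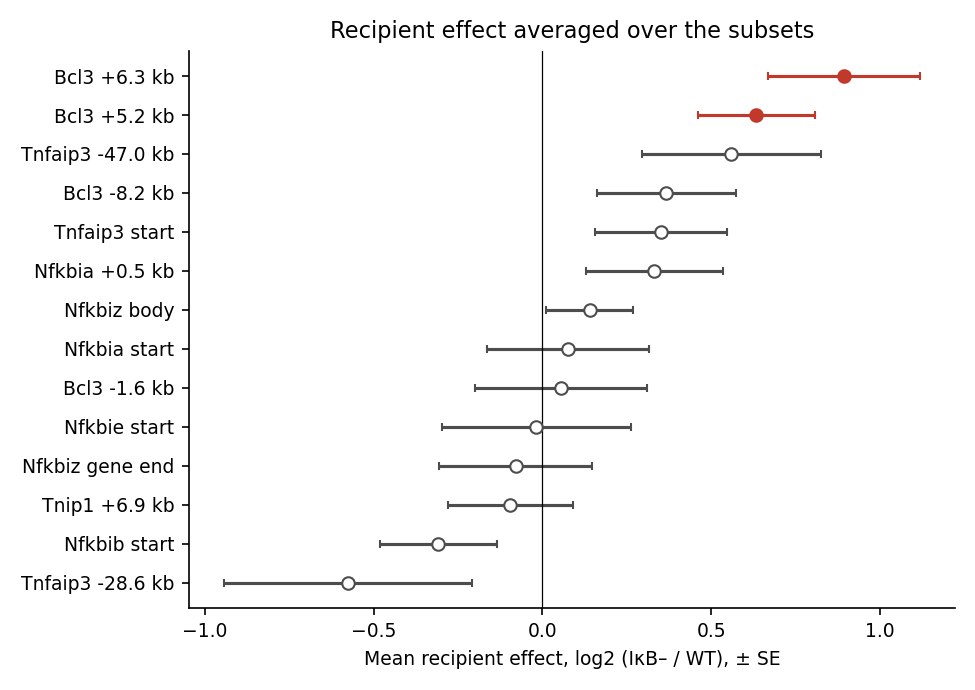
Mean recipient effect over the 4 subsets for each region, as log2 of IκB– over WT with bars of ± SE from edgeR; filled red points have an adjusted p under 0.05. The 2 regions inside Bcl3, at 0.89 and 0.63, are the filled points, and the other 12 regions run from -0.58 to 0.56.

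Counts of this depth were simulated as independent between libraries, without the deviation shared within replicate numbers, so the recovery may be overstated for the mean effect. In them, 76.0% of regions with a 2-fold change in all 4 subsets were recovered and 22.0% of those with a 1.5-fold change. For a 2-fold change in 1 subset the recovery was 1.0% to 15.5%. A difference of less than about that size at the other members was thus often not detectable here, above all within a subset.

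No member passed a test between the sorted subsets, and with 14 regions such a count lies near the shares called among all regions. With both recipient types averaged, 0 of 14 members were called by the joint test of the subsets, by which 7.18% of tested regions were called. Against HSC, 0 members were called in MPP2, MPP3 and MPP4 with edgeR, DESeq2 or limma-voom. With edgeR 0.03%, 2.57% and 1.27% of tested regions were called in them. DESeq2 called 4, 310 and 125 regions, and limma-voom 4, 267 and 44. At an unadjusted p under 0.05, edgeR, DESeq2 and limma-voom gave 1, 0 and 0 members in the joint test, 2, 1 and 2 in MPP2 and 0 each in MPP3 and MPP4. With edgeR the shares of all tested regions at that p were 18.8% in the joint test, 8.31% in MPP2, 14.2% in MPP3 and 12.0% in MPP4. The smallest p of the joint test was at the Bcl3 region 5.2 kb into the gene (edgeR adjusted p 0.216), where the estimates relative to HSC were -0.41 ± 0.26 for MPP2, 0.21 ± 0.25 for MPP3 and 0.24 ± 0.26 for MPP4 (log2, SE). The region at 6.3 kb was lower in MPP2 by estimate, at -0.75 ± 0.34 (adjusted p 0.562), as was the Nfkbib start at -0.53 ± 0.25 (adjusted p 0.577). With 1 replicate left out these ran from -0.96 to -0.51 and from -0.67 to -0.25, and those at 5.2 kb from -0.57 to -0.30, 0.12 to 0.33 and 0.12 to 0.33. In MPP2 3 of 14 estimates against HSC were positive, in MPP3 10 and in MPP4 4, against 48.9%, 47.9% and 47.2% of tested regions. Among the marker regions, 1 at Cebpa, a myeloid regulator, was called higher in MPP3 and in MPP4 than in HSC, and 1 each at Slamf1, Vwf and Zfpm1 were called lower in MPP3. The HSC marker list as a whole had a median of 0.32 in MPP3 against HSC over 9 regions, with Slamf1 the only negative one. No region of the MPP2 list was called higher in MPP2 and none of the MPP4 list in MPP4.

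**Figure D5:**
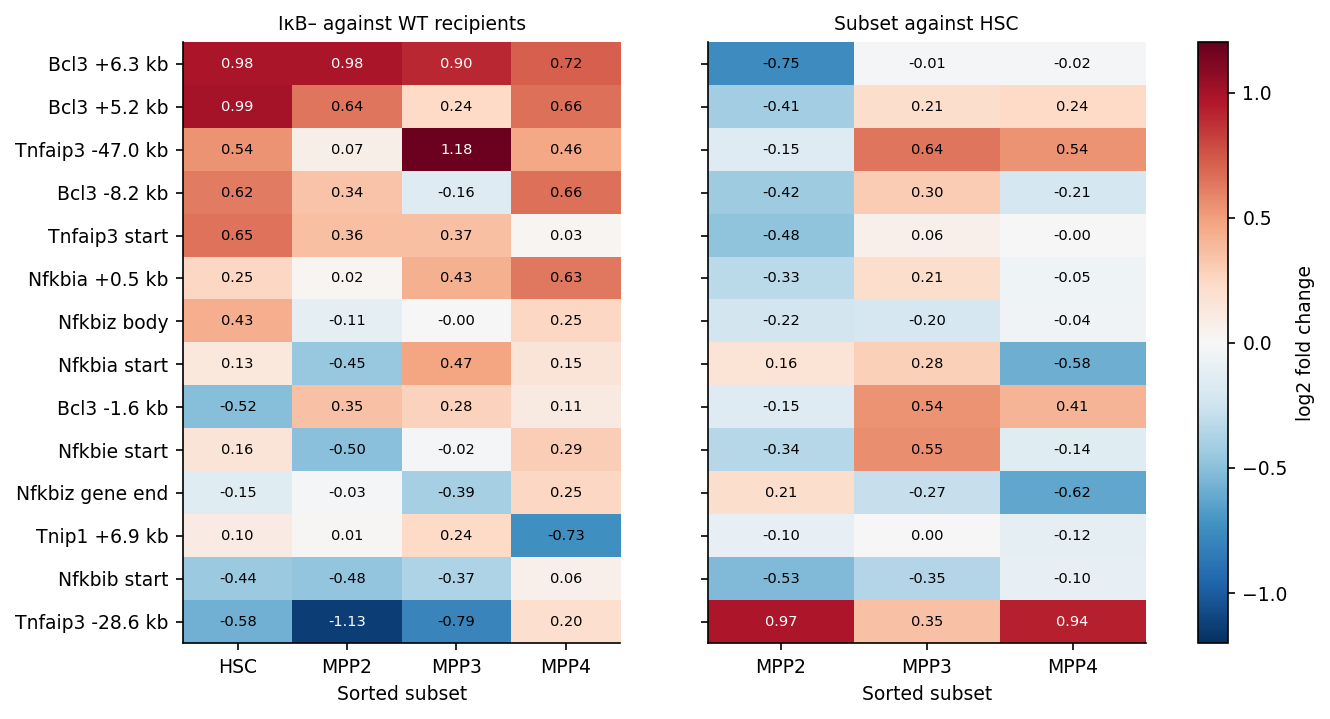
Log2 fold changes from edgeR of each region (rows), for IκB– against WT recipients in the 4 subsets (left) and for each progenitor subset against HSC (right), with blue for negative and red for positive values on 1 scale. The top rows, both inside Bcl3, are positive in all 4 columns on the left; no cell of either panel had an adjusted p under 0.05.

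Few regions at other genes of the pathway were called, and their shares were not tested against those of all regions. Of 40 listed genes, which are the NF-κB subunits, the kinases that act on IκB proteins, 1 further IκB protein, other brakes on the pathway and its adaptors, 34 had a tested region, with 49 regions in all. In the mean recipient effect 0 of 49 passed with edgeR, against 1.73% of all tested regions, and 8 had an unadjusted p under 0.05, against 14.3%. By list the median effects were 0.16 for 8 regions of the 5 subunit genes, 0.10 for 6 regions of kinase genes, 0.14 for 20 regions of other brakes and 0.03 for 15 regions of adaptor genes. Between subsets 2 of 49 regions passed the joint test, against 7.18% of all tested regions, both outside but nearest to Zc3h12a, which encodes the RNase Regnase-1 that degrades inflammatory transcripts (adjusted p 0.0230 and 0.0319).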

How the data were processed

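Per the labels, donor cells were sorted and profiled by ATAC-seq. The authors deposited a table of unnormalized counts, 1 line per region; the submitters' processing notes name mm10, Bowtie2, SAMtools, Picard, MACS2 2.1.0 and deepTools, and how the regions were merged or counted is not given in the sources used here. The genes and lists were chosen with earlier results of these data known. Regions were joined to a RefSeq gene table of GRCm38.p6. The chi-square per degree of freedom between replicates 2 and 3 of WT MPP3 was 1.005 (p = 0.348 over 13126 regions), and their counts were summed. Counts were fitted in edgeR 4.0.16 (R 4.3.3) with TMM scaling, filterByExpr, 1 mean per group over 23 replicates and robust quasi-likelihood tests with 15 residual degrees of freedom. Benjamini-Hochberg adjustment covered all 13325 tested regions in each of 10 comparisons. Replicates are separate libraries by their labels, which do not tie them to mice, so p-values measure the spread between libraries. DESeq2 1.42.0 and limma 3.58.1 served as alternatives. The fit was tested on simulated counts with 200 changed regions, drawn independently for each library. For each gene the text gives the region nearest its start with values in every replicate, every region called in any comparison and, failing that, the smallest p; other regions are given by counts and ranges.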

Additional observations from a re-analysis of the deposited data

How the results depend on the processing

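The number of members called in the mean recipient effect, 2 with the reported fit, stayed at 2 with DESeq2 size factors, cyclic loess scaling, no filter on low counts, limma-voom, 24 libraries kept apart, mitochondrial and unplaced regions left out, or members taken within 1 kb or within 100 kb of a gene end. It was 1 with total counts and 0 with DESeq2. Among alternatives chosen after seeing the data, it was 0 with counts summed per replicate number and 0 with limma-voom and an estimated correlation. Leaving out 1 replicate at a time gave 0 to 2. In the other 9 comparisons 0 members were called under every alternative run. With a replicate block, 24 libraries kept apart, 2 members were called, at 0.84 and 0.63 (log2; adjusted p 0.0152 and 0.0241), and calls over all regions were 481 against 231 with the reported fit. They were 4 with summed counts, 30 with the estimated correlation and 53 without the merged WT MPP3 replicate, so the background of 1.73% depends on this choice too. All 24 libraries deviated more like those of their own number than like others of the same recipient type. Same-numbered libraries of different recipients also correlated, at 0.128 on average (-0.07 to 0.421) against -0.06 for different numbers, though not every pair was positive. The reported fit did not take the numbers as pairs across recipients, and among the alternatives only the replicate block used them in this way. Within a recipient type all 36 same-numbered pairs were positive (mean 0.180, 0.0287 to 0.372), so the subsets behind the Bcl3 calls were not independent by this measure. The sign changed for small effects: at the Nfkbia start to -0.00736 with the estimated correlation, and at the Nfkbie start to 0.0232 with cyclic loess, 0.0124 with the replicate block and 0.0344 with summed counts. Without 1 replicate, the effect ranged from -0.0587 to 0.184 at 1.6 kb upstream of Bcl3, from -0.163 to 0.185 at the Nfkbia start (0.202 without the merged WT MPP3 replicate), from -0.292 to 0.132 at the Nfkbie start (0.0182 without the merged replicate) and from -0.171 to 0.0472 at the Nfkbiz gene end; the cause was not tested. The median CPM of the members, averaged over replicates, was 47.7 and ran from 42.8 to 51.2 under 5 alternatives. Counts of 0 to 155 per replicate limit every value.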
